A study of Homo sapiens with 60 samples.

Results

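A LINC name, a prefix with a serial number, is given in the human catalogue to a long intergenic noncoding RNA. Some genes with such a name have another name or type in the current reference, as given below. In a gene count table from Flp-in HEK293 cells whose RNA was labelled with APEX2, 2118 genes of 60590 carry such a name, and 104 of these had no count in any library. The 291 members described here are those with a mean of at least 1 CPM (CPM, a gene's counts scaled by the library's total count) over the 28 pulldown libraries. The last members inside that limit were LINC01429 (1.005 CPM), LINC00449 (1.002 CPM) and LINC00654 (1.002 CPM), and the first outside were LINC01483 (0.998 CPM), LINC01118 (0.997 CPM) and LINC01023 (0.995 CPM). Pulldown level chose the members, so their pulldown over input leans upward by construction and is given without a test. Of the 291, 219 also had a mean of 1 CPM or more in the inputs, and counts within those 219 are given where the choice could matter.

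Long intergenic noncoding RNAs are transcribed by RNA polymerase II and are capped like mRNAs, but many are spliced inefficiently, stay in the nucleus and are turned over near their own gene. Nuclear speckles hold splicing factors, polyadenylated RNA and the noncoding RNA MALAT1. The lamina lines the inner nuclear membrane and holds gene-poor, late-replicating chromatin in which many LINC genes lie.

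Each of 14 lines stably expressed 1 FLAG-tagged APEX2 construct. The baits were SRSF1, SRSF7 and RNPS1 (speckle proteins), SAM68 (an RNA-binding protein that regulates splicing), PML and SP100 (PML bodies), SMN2 and WRAP53 (gems and Cajal bodies), NPAT (histone locus bodies), FBL (nucleolar fibrillarin), LMNA (lamin A), a nuclear localisation signal (NLS), GFP, and a construct labelled FLAG. All lines, controls included, received biotin-phenol at 500 uM over 30 minutes, and then a 1-minute pulse of hydrogen peroxide at 1 mM. APEX2 is a peroxidase that turns biotin-phenol into a short-lived radical, which tags nearby RNA for capture on streptavidin. Each line gave 2 pulldown libraries and 2 libraries of its RNA before pulldown (input) from ribosome-depleted RNA. A second table holds further SRSF7 pulldowns, 2 made by poly(A) selection and 2 by ribosome depletion. The labels do not say whether replicates were separate cultures or whether a line was 1 clone.

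Totals ran from 14038645 to 56256915 counts in the inputs, from 19280434 to 42097988 in the pulldowns and from 23522546 to 30511742 in the second table. Of 9 genes known for HEK293 cells, 8 reached 1 CPM in every library of the first table; NEFM did not. Libraries fell into 3 sets by the counts of the pseudogenes RPS14P8 and RPS3AP21. SRSF1, SRSF7, PML, NLS and FLAG were of 1 set in both fractions, while the LMNA and GFP pulldowns formed a set of their own. RNPS1, SAM68, SP100, SMN2, WRAP53, NPAT and FBL had pulldowns of the same set as NLS but inputs of another set, to which the GFP inputs belong too. For all of these baits, GFP and LMNA, pulldown over input and its difference from NLS cannot be told apart from library set. HBB, a red cell gene, lay between 2.34 and 3.49 CPM in the LMNA and GFP pulldowns and at most at 0.0834 CPM elsewhere; its part in any result was not tested. The first inputs of FBL and NPAT stood apart from their replicates: LINC01578, named CHASERR in RefSeq and lying beside the gene of the chromatin remodeller CHD2, was at 45.3 and 23.6 CPM there and at no more than 9.50 CPM in any other input.

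By RefSeq (GRCh38.p14), 259 members matched by symbol and 28 by a synonym, and 4 were unmatched. The reference calls 282 of the 287 matched members lncRNA, 3 protein-coding and 2 transcribed pseudogenes. The spans of 260 overlap no protein-coding gene and those of 27 do, so the counts of the latter can include reads of a neighbour, as can those of antisense partners, since the strand setting of the counting is not given in the sources used here. For 12 members the current name ends in -DT, for a divergent transcript of a coding gene. Genomic spans ran from 561 bases (LINC00235) to 543014 bases, with a median of 27931 bases.

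Levels were skewed towards a few members. The mean over pulldowns was 10 CPM or more for 64 members, from 2 to under 10 CPM for 124 and under 2 CPM for 103, with a median of 3.32 CPM. The most abundant was LINC01515 (chr10:65571425-65766541), at 96.2 CPM in its lowest pulldown, 156 at the median and 574 in the highest. LINC00662 (chr19:27790493-27793940) followed, with 105, 153 and 476 CPM. LINC00665 (chr19:36313061-36331753) had 82.7, 129 and 403 CPM. LINC01572, LINC02693, LINC01619, LINC01004, LINC01473, LINC01876 and LINC01184 completed the 10 most abundant, with means from 67.3 to 112 CPM. In the inputs the order changed: LINC00665 was highest with a mean of 130 CPM, then LINC00662 with 111 CPM, LINC02693 with 92.0 CPM and LINC01515 with 84.6 CPM.

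Summed over the members, the mean level was 3231 CPM in the pulldowns and 2123 CPM in the inputs. The LMNA pulldowns gave the members 0.517% and 0.599% of all counts, and the GFP pulldowns 0.527% and 0.403%. The SRSF7 pulldowns followed with 0.450% and 0.416%. The PML pulldowns (0.216% and 0.226%) lay within the range of the inputs (0.134% to 0.257%). The 2 lowest input shares were those of the SRSF1 line, at 0.134% and 0.143%. The SRSF1 pulldowns held 0.30% and 0.31%, below the 0.342% and 0.321% of the NLS pulldowns.

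On the log2 scale, the median member was 1.23 higher in pulldown than in its own input for SRSF1, 0.97 for LMNA, 0.95 for GFP and 0.75 for SRSF7. The SRSF1 value is beside that line's low input shares and a pulldown share below that of NLS. It was 0.59 for FBL, 0.55 for NLS, 0.54 for RNPS1 and 0.50 for NPAT. For SAM68 it was 0.27, and for PML, SMN2, WRAP53 and FLAG between 0.09 and 0.14. Over all 23681 tested genes the same medians were 0.28 for SRSF1, 0.10 for LMNA, 0.09 for GFP, 0.17 for SRSF7 and 0.05 for NLS. The member median was above that of all genes for 13 of 14 baits, SP100 being the exception. Among the 224 LINC-named genes chosen by a mean of 1 CPM in the inputs instead, it was above for 10 of 14, and it stayed highest for SRSF1 (1.06), LMNA (0.72), SRSF7 (0.65) and GFP (0.60).

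**Figure D1:**
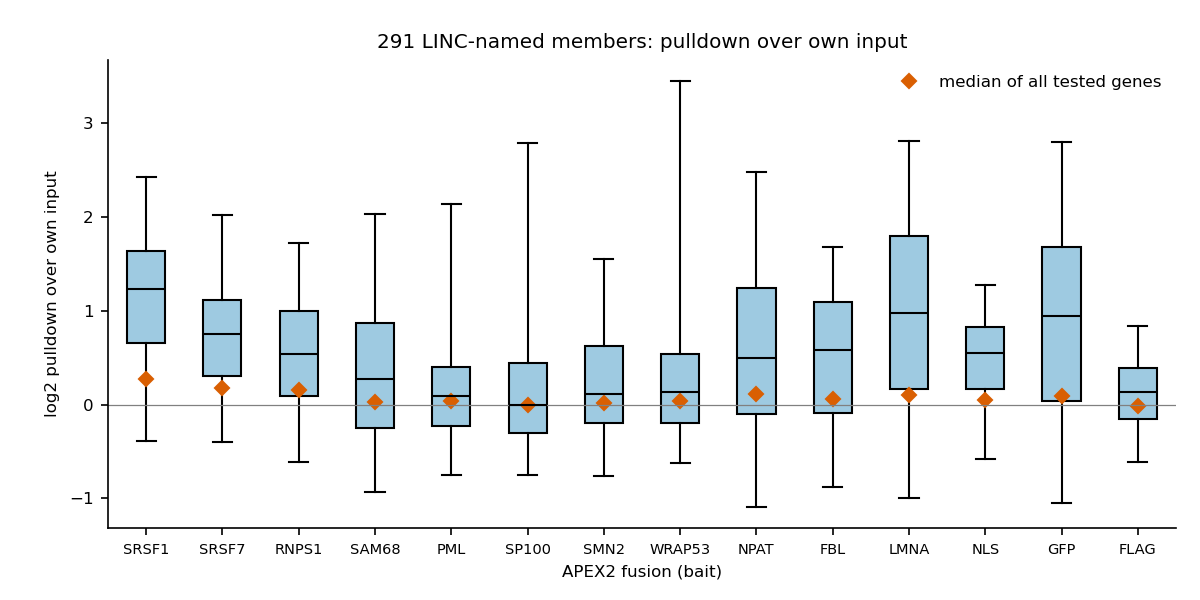
Log2 pulldown over own input of the 291 members for each bait: boxes span the quartiles with the median as a line, whiskers the 5th to 95th percentile, and diamonds mark the median of all tested genes. The SRSF1, LMNA and GFP boxes sit highest (medians 1.23, 0.97 and 0.95), and the SP100 median lies on that of all genes.

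Members did not follow 1 profile. 60 of 291 were above 0 in all 14 baits and 6 were below 0 in all 14. The highest of a member's 14 values was that of SRSF1 for 80 members, LMNA for 58, GFP for 52, SRSF7 for 30 and WRAP53 for 19. Each other bait held the highest value of at most 12. These counts of signs and of highest values were not made over all tested genes, so nothing particular to LINC-named genes is read from them. The 6 members below 0 throughout were LINC02381, LINC00963, LINC01578, LINC01116, LINC02604 and LINC01783. For LINC02604 the values ran from -2.09 (SP100) to -0.39 (SRSF1), and for LINC01783 from -3.22 (GFP) to -0.15 (SRSF1). Pulldown over input differed among the 14 baits for 208 members (71.5%) by edgeR's quasi-likelihood F test with Benjamini-Hochberg adjustment over all genes, where 68.8% of all tested genes passed. The share of members is thus close to that of genes in general.

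Each bait's pulldown over input was then compared with that of NLS, which labels the nucleus without a body of its own. All these comparisons use the same 4 NLS libraries, so they are not independent of each other. Values are log2 differences between the bait's and the NLS line's pulldown over input, and adjusted p-values are from edgeR's quasi-likelihood test with Benjamini-Hochberg adjustment over 23681 genes at a threshold of 0.05.

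With the speckle baits (the mean of SRSF1, SRSF7 and RNPS1), nearly all members that passed were higher than with NLS. 38 of 291 members passed (13.1%), 37 higher and 1 lower, against 20.4% of all tested genes, of which 12.5% were higher and 7.88% lower. All 38 were among the 219 members that also reach 1 CPM in the inputs. The median difference was 0.30 over members and 0.14 over all genes, and it was 0.29 for the 69 DT-named transcripts and 0.30 for the 451 AS-named antisense transcripts held to the same level rule. By span, 19 of 79 members under 10 kb were higher, 15 of 142 from 10 to under 100 kb, and 2 of 66 of 100 kb or more. All genes matched by symbol had the same order, with 741 of 3970, 1551 of 10293 and 94 of 3540 higher in these classes (28.3%, 26.9% and 8.31% called in either direction), so the order is not particular to LINC-named genes. Of 21 members whose start lies within 1000 bases of a coding gene's start in the opposite direction, 7 were higher. Of 181 members with a RefSeq promoter and no such start, 20 were higher. The difference was not tested, and span was not held equal.

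The largest differences were those of LINC02298, LINC01962, LINC00235, LINC02585 and LINC00653. LINC02298 (chr14:105094147-105099496) was at 7.43 and 5.54 CPM in the SRSF7 pulldowns and 2.19 and 2.24 CPM in that line's inputs, and at 1.69 and 2.62 CPM in the NLS pulldowns against 2.00 and 2.04 CPM in the NLS inputs. Every speckle pulldown of it exceeded every input of the same line, and the NLS fractions overlapped. Its log2 difference was 1.47 (SE 0.35, adjusted p = 0.001852 by edgeR's test).

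LINC00235 (chr16:526847-527407), the shortest member, starts opposite the protease gene CAPN15. It was at 63.1 and 53.5 CPM in the SRSF7 pulldowns over inputs of 9.73 and 9.82 CPM, and at 26.4 and 28.7 CPM in the SRSF1 pulldowns over 6.41 and 7.63 CPM. RNPS1 gave less, 17.6 and 16.8 CPM over 11.3 and 8.24 CPM, and NLS 12.4 and 14.7 CPM over 9.48 and 10.7 CPM. The log2 difference was 1.33 (SE 0.23, adjusted p = 3.553e-05 by edgeR's test). The same member was low in the NPAT pulldowns, at 5.09 and 5.34 CPM over inputs of 17.6 and 9.57 CPM, and it passed as lower than with NLS for SAM68 (-1.44), GFP (-1.24), the PML body baits (-1.12) and LMNA (-0.99) too.

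LINC00653, named LCDR in RefSeq (chr20:18794049-18796065), separated the speckle baits from one another. Its SRSF1 pulldowns held 13.2 and 11.2 CPM over inputs of 0.939 and 1.14 CPM. SRSF7 gave 3.97 and 4.07 CPM, and RNPS1 4.08 and 2.13 CPM, over inputs between 1.12 and 1.42 CPM. The NLS pulldowns (3.01 and 1.79 CPM) overlapped those of RNPS1. LINC01197, named LETR1 in RefSeq, was the member that passed in the lower direction, by 0.72 (SE 0.24, adjusted p = 0.03165 by edgeR's test). Its NLS pulldowns were at 5.08 and 4.74 CPM over 2.09 and 2.55 CPM, while its RNPS1 fractions overlapped, at 2.65 and 2.38 CPM over 2.80 and 2.46 CPM.

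The count rests on the controls and on the SRSF1 line. It fell to 22 and 20 without the first or second NLS input, to 18 and 25 without the first or second NLS pulldown, and to 21 (19 higher, 2 lower, where 14.9% of all genes passed) with the SRSF1 line left out, a setting chosen after seeing the data. Within the library set that holds both fractions of SRSF1, SRSF7 and NLS, 52 members were higher, where 25.4% of all genes passed. LINC00235 stayed past the threshold without any 1 library. LINC02298 did not without the first NLS pulldown, LINC01962 without either NLS input or the first NLS pulldown, LINC02585 without the first NLS input or pulldown, LINC00653 without the first NLS input or second NLS pulldown, and LINC01197 without the first NLS input, first NLS pulldown or first SRSF1 input; the adjusted p then reached at most 0.3146 (LINC02585).

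With LMNA, the lamina bait, long members were higher than with NLS. 59 of 291 passed (20.3%), 51 higher and 8 lower, against 16.2% of all tested genes, of which 7.46% were higher and 8.73% lower. Within the 219 members that reach 1 CPM in the inputs, 42 were higher and 8 lower. The median difference was 0.50 over members, 0.31 over those 219 and 0.03 over all genes. It was 1.12 for the 66 members of 100 kb or more, of which 22 were higher. It was 0.48 for the 142 from 10 to under 100 kb (25 higher, 5 lower) and -0.16 for the 79 under 10 kb (2 higher, 3 lower).

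The same order by span held over all genes matched by symbol, so it is not particular to LINC-named genes. The all-gene medians were 0.65 for 3540 genes of 100 kb or more, -0.08 for 10293 genes from 10 to under 100 kb and -0.54 for 3970 genes under 10 kb. In these classes, in the same order, 31.3%, 12.5% and 25.8% of genes passed in either direction. The member medians by span include the 72 members under 1 CPM in the inputs, which the pulldown rule favours and whose own median was 1.03, so they are not set against those of all genes.

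Among the abundant members, LINC01515 was at 486 and 574 CPM in the LMNA pulldowns over inputs of 95.9 and 109 CPM, and at 186 and 158 CPM in the NLS pulldowns over 83.4 and 84.5 CPM. The lower LMNA pulldown was above both NLS pulldowns, and the log2 difference was 1.44 (SE 0.35, adjusted p = 0.004264 by edgeR's test). LINC00662 rose by 1.04 (SE 0.25, adjusted p = 0.00375 by edgeR's test), with LMNA pulldowns at 371 and 366 CPM over 114 and 113 CPM. LINC01473 and LINC01876, which span 52787 and 234397 bases, rose by 2.05 and 1.93. LINC00665 fell by 0.49 (SE 0.13, adjusted p = 0.007608 by edgeR's test): its LMNA pulldowns, 91.5 and 82.7 CPM, were below its LMNA inputs, 110 and 113 CPM, while its SRSF1 pulldowns reached 267 and 281 CPM over 151 and 152 CPM.

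The largest differences were those of LINC02755 (4.71) and LINC01322 (4.08). Both have few reads and became members only through the pulldowns in which they are high, so these values are a description and no test is read from them. LINC02755 was at 2.35 and 1.19 CPM in the LMNA pulldowns over inputs of 0.103 and 0 CPM. LINC01322 was at 2.66 and 2.27 CPM over 0.129 and 0.121 CPM. Both were also high in the GFP and WRAP53 pulldowns, described with the low-input members. In the lower direction LINC00637, named PPP1R13B-DT in RefSeq, differed by -1.45 (SE 0.40) and LINC00857 by -1.40 (SE 0.42). LINC00637 was at 0.595 and 0.936 CPM in the LMNA pulldowns over inputs of 1.16 and 1.43 CPM, and at 2.72 and 2.58 CPM in the NLS pulldowns. The LINC00637 call was lost without the first LMNA pulldown (adjusted p 0.06222 by edgeR's test), and that of LINC00857 without the second LMNA input, second LMNA pulldown, first NLS input or second NLS pulldown (up to 0.1796).

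The count for LMNA was 27 and 38 without the first or second LMNA input, 27 and 35 without the first or second NLS input, and 25 without the second NLS pulldown.

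**Figure D2:**
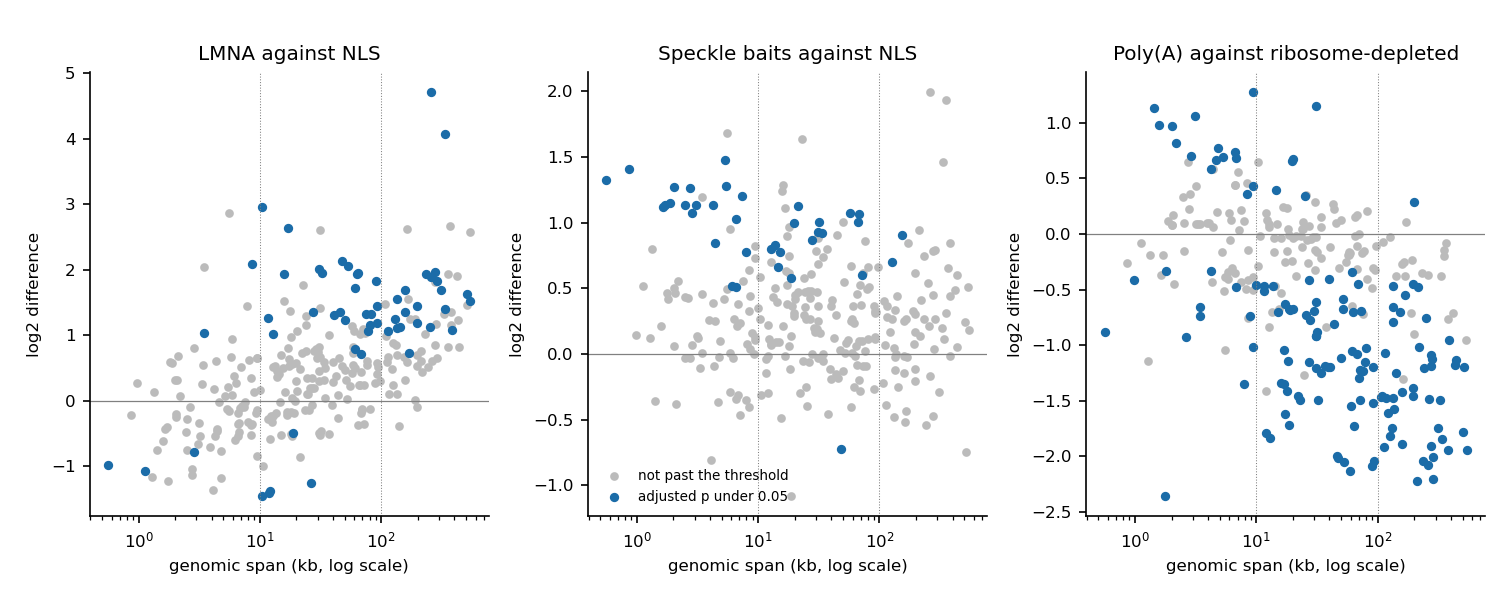
Log2 difference of each member with a RefSeq position against its genomic span (kb, log scale; dotted lines at 10 and 100 kb) for LMNA against NLS, the speckle baits against NLS, and poly(A) against ribosome-depleted SRSF7 pulldowns; dark points passed the threshold. Long members lie high for LMNA (median 1.12 at 100 kb or more) and low for poly(A) (median -1.13), and the speckle calls gather among the short ones.

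GFP, a control construct, gave nearly the same span order as LMNA. 43 members passed (14.8%), 29 higher and 14 lower, against 17.8% of all tested genes (7.53% higher, 10.3% lower). The medians by span were 1.04 at 100 kb or more (11 higher), 0.42 from 10 to under 100 kb (16 higher, 6 lower) and -0.29 under 10 kb (2 higher, 8 lower). Within the 219 members that reach 1 CPM in the inputs, 24 were higher and 14 lower, with a median of 0.24, against 1.15 for the other 72. All genes matched by symbol gave 0.65, -0.09 and -0.60 in the same span classes. Of these genes 32.1%, 14.6% and 28.8% were called in either direction, in the same order. LINC00378 and LINC02680 had the largest differences past the threshold (2.99 and 2.09), but both were under 1 CPM in the inputs and became members through their pulldowns, so their values are a description. LINC00378 was at 4.94 and 2.73 CPM in the GFP pulldowns over inputs of 0.391 and 0.214 CPM. LINC02680 was at 2.64 and 2.12 CPM over 0.498 and 0.356 CPM. In both, each GFP pulldown lay above every GFP input. LINC01783 differed by -1.99 (SE 0.59), with 0.468 and 0 CPM in the GFP pulldowns over 2.77 and 1.85 CPM, and LINC01106 by -1.59 (SE 0.53). The LINC01106 call held only without the second GFP pulldown among the 8 libraries left out in turn, and that of LINC01783 was lost without the first GFP input, second GFP pulldown or first NLS pulldown (adjusted p up to 0.1422). The count was 11 and 12 without the first or second GFP input, 23 without the first GFP pulldown, 19 and 14 without the first or second NLS input, and 22 and 14 without the first or second NLS pulldown.

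Because the LMNA and GFP pulldowns share a library set, they were also compared directly, a comparison chosen after the data were seen. Their inputs were the closest of the 91 pairs of lines, with 3 members and 0.469% of all genes past the threshold. Between the pulldowns, 45 members passed, 36 higher and 9 lower in LMNA, where 12.4% of all genes passed. The median difference was 0.04 over members and 0.006 over all genes. These pulldowns are among the libraries that chose the members, and the share of all genes was not split by direction. The balance of 36 to 9 is thus a description and is not read as particular to members. LINC01695 was highest in LMNA relative to GFP (log2 difference 2.16, SE 0.22), at 5.57 and 5.08 CPM against 1.27 and 1.11 CPM, but its inputs also differed, 1.11 and 0.972 CPM against 0.391 and 0.570 CPM. LINC00839 had like inputs, 6.32 and 8.44 CPM against 6.08 and 6.70 CPM, and pulldowns of 14.7 and 14.7 CPM against 6.75 and 5.31 CPM (log2 difference 1.29, SE 0.17, adjusted p = 1.678e-06 by edgeR's test). LINC00637 was lower in LMNA by 1.15 on the log2 scale (-1.15, SE 0.33).

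With SAM68 more members were lower than higher than with NLS. 37 passed (12.7%), 12 higher and 25 lower, against 20.2% of all tested genes (12.2% higher, 8.03% lower), with a member median of -0.20. LINC01388 (chr9:100999-113795) was at 4.63 and 4.24 CPM in the SAM68 pulldowns over inputs of 1.60 and 1.37 CPM, and at 0.631 and 0.397 CPM in the NLS pulldowns over 1.37 and 1.56 CPM. The fractions thus lie in opposite order in the lines, and the log2 difference was 3.45 (SE 0.47, adjusted p = 3.496e-07 by edgeR's test). LINC01963 (chr2:216216889-216220192) was at 13.6 and 14.4 CPM over 5.67 and 5.30 CPM for SAM68, and at 6.48 and 7.28 CPM over 8.11 and 7.16 CPM for NLS. Its log2 difference was 1.94 (SE 0.39). LINC01166 fell by 1.96 (SE 0.38), with SAM68 pulldowns of 0.538 and 0.825 CPM over 1.83 and 2.14 CPM, and LINC01397 by 1.86 (SE 0.39). The count was 24 without the first NLS input and 24 and 22 without the first or second SAM68 pulldown.

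For the PML body baits (the mean of PML and SP100), 19 members passed (6.53%) and each was lower than with NLS, against 3.8% of all tested genes, 1.26% higher and 2.54% lower. LINC01551 was at 1.92 and 2.08 CPM in the SP100 pulldowns over 2.99 and 3.35 CPM, and at 3.96 and 3.25 CPM in the NLS pulldowns over 1.30 and 1.21 CPM. Its log2 difference was -1.69 (SE 0.30, adjusted p = 0.00126 by edgeR's test), and that of LINC01191 was -1.83 (SE 0.48). The LINC01191 call was lost without any 1 NLS library, either second PML library or the second SP100 input (adjusted p up to 0.2044). The count was 2, 4, 4 and 9 without the first NLS input, second NLS input, first NLS pulldown and second NLS pulldown, 8 and 11 without the second PML input and first PML pulldown, and 6 and 9 without the second SP100 input and first SP100 pulldown. Within the library set of PML and NLS it was 1.

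SMN2 and WRAP53, baits of the Cajal body and gem, also had more lower than higher members. For SMN2, 14 passed (4.81%), 1 higher and 13 lower, against 6.68% of all genes (4.41% higher, 2.27% lower). LINC01600 differed by -2.55 (SE 0.50), at 0.288 and 0.399 CPM in the SMN2 pulldowns over 0.867 and 1.27 CPM. LINC00637 differed by -1.94 (SE 0.40) and LINC01388 by 1.73 (SE 0.51). The LINC01388 call was lost without any 1 library but the first SMN2 pulldown (adjusted p up to 0.274 by edgeR's test). Its log2 pulldown over input was 0.05 with SMN2 and -1.67 with NLS, so it was not raised over its own SMN2 input. The SMN2 count was 7, 7, 7 and 8 without the first NLS input, second NLS input, first NLS pulldown and second NLS pulldown, and 6 without either SMN2 input or the second SMN2 pulldown. For WRAP53, 23 passed (7.90%), 3 higher and 20 lower, against 8.31% of all genes (4.99% higher, 3.32% lower). Within the 219 members that reach 1 CPM in the inputs, 2 were higher and 18 lower. DESeq2 called 15 higher and 22 lower, where 11.4% of all genes passed. The replicate block gave 10 higher and 22 lower, where 7.84% of all genes passed. LINC01090 was at 8.01 and 3.49 CPM in the WRAP53 pulldowns over 2.25 and 2.41 CPM, both above every WRAP53 input (log2 difference 1.70, SE 0.38). LINC01198 differed by -1.83 (SE 0.55) and LINC02696 by -1.76 (SE 0.57). Their log2 pulldown over input with NLS was high, at 1.66 (SE 0.51) and 1.23 (SE 0.35). LINC01198 is also the member with the widest range of input level between lines. The LINC01090 call was lost without the first WRAP53 pulldown (adjusted p = 0.08479 by edgeR's test). LINC01198 held only without the first WRAP53 pulldown, and LINC02696 only without the second NLS pulldown or first WRAP53 input. The WRAP53 count was 10, 14 and 9 without the first NLS input, second NLS input and first NLS pulldown, and 14 and 11 without the first or second WRAP53 input.

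NPAT, FBL and FLAG gave few calls. For NPAT, 7 passed (2.41%), 1 higher and 6 lower, against 4.19% of all genes (1.13% higher, 3.06% lower). LINC01505 was at 65.1 and 36.4 CPM in the NPAT pulldowns over 7.17 and 14.7 CPM (log2 difference 1.47, SE 0.43), LINC00637 differed by -1.77 (SE 0.43) and LINC00235 by -1.74 (SE 0.29). The LINC01505 call held only without the second NPAT input or second NPAT pulldown, and that of LINC00637 was lost without the first NLS input or pulldown, first NPAT input or second NPAT pulldown. The NPAT count was 3, 4, 3 and 4 without the first NLS input, second NLS input, first NLS pulldown and second NLS pulldown, 2 without the first NPAT input and 40 without the second. For FBL, LINC00863 passed, at 13.4 and 11.8 CPM in the pulldowns over 23.2 and 16.5 CPM (-0.97, SE 0.23), against 0.688% of all genes (0.439% higher, 0.249% lower). At an unadjusted p under 0.05, 28 members passed for FBL, a description, since the share of all genes at that level is not given here. DESeq2 called 6, where 3.31% of all genes passed. The FBL count was 51 without the second FBL input, and the call was lost without any other single FBL or NLS library.

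For FLAG, 8 passed (2.75%), each lower, against 3.08% of all genes (2.21% higher, 0.866% lower), with LINC02696 at -1.95 (SE 0.51) and LINC00637 at -1.71 (SE 0.40). LINC02696 held only without the second FLAG input or second NLS pulldown, and LINC00637 only without the second FLAG input, second NLS input or second NLS pulldown. The FLAG count was 1, 2, 0 and 4 without the first NLS input, second NLS input, first NLS pulldown and second NLS pulldown, 0 without the first FLAG input or first FLAG pulldown, and 1 without the second FLAG pulldown. At an unadjusted p under 0.05, 47 members passed for FLAG, a description, since the share of all genes at that level is not given here. DESeq2 called 11, where 6.47% of all genes passed. LINC00637 was named in the LMNA, SMN2, NPAT and FLAG comparisons, always in the lower direction, and it also passed as lower with SAM68 (-1.20), the PML body baits (-1.33) and WRAP53 (-1.20). All of these share its NLS values, 2.72 and 2.58 CPM in pulldown over 1.44 and 1.62 CPM.

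**Figure D3:**
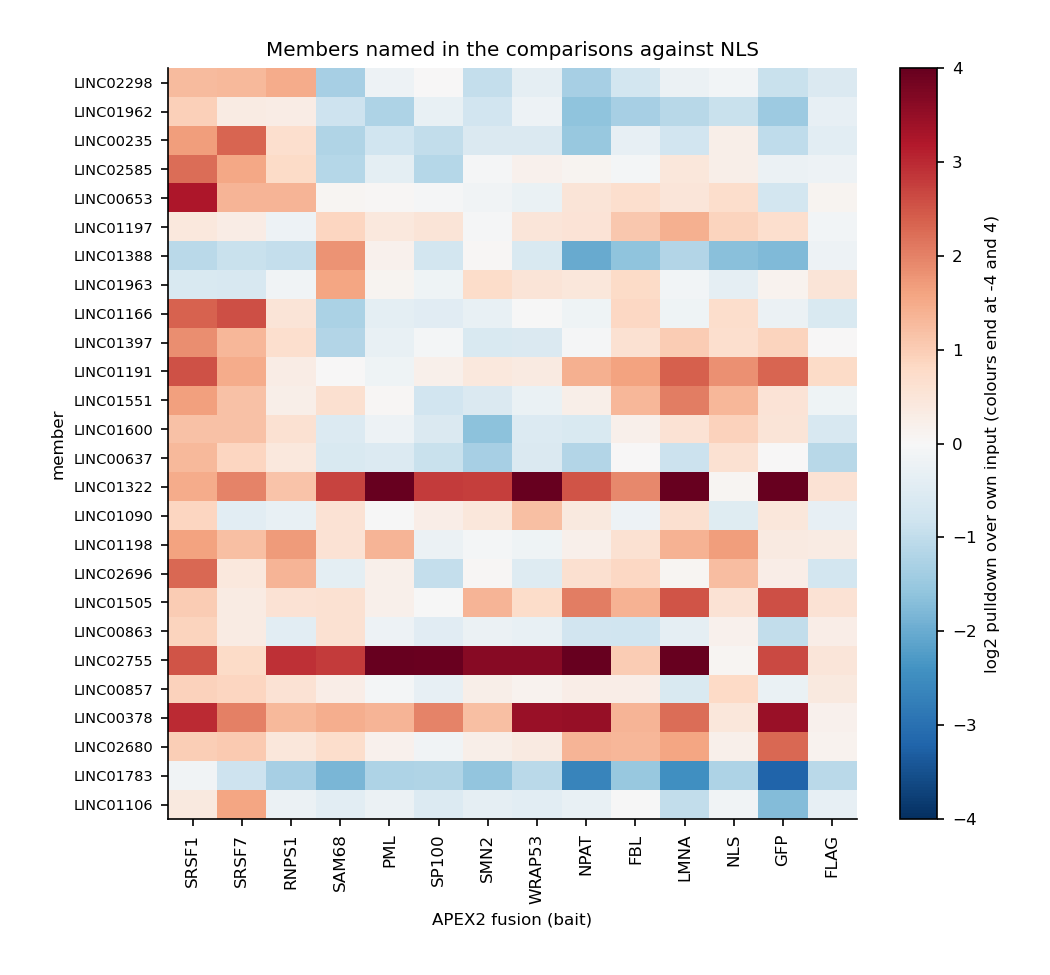
Log2 pulldown over own input of the members named in the comparisons against NLS (rows) for the 14 baits (columns); red is higher in pulldown, blue lower, and colours end at -4 and 4. LINC02755, LINC01322 and LINC00378 are high with many baits, LINC01388 is red mainly under SAM68, and LINC00235 under SRSF7 and SRSF1.

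A group of members was nearly silent in the inputs. 29 members had a mean input level under 0.5 CPM, so only their pulldown level made them members, and their values are a description. Their summed level was between 4.44 and 24.8 CPM in the 28 inputs. In the pulldowns it was 153 and 37.8 CPM for WRAP53, 57.5 and 102 CPM for GFP, 69.5 and 63.4 CPM for NPAT, 64.9 and 63.1 CPM for LMNA and 79.1 and 37.4 CPM for SP100. It was 16.5 and 55.9 CPM for PML. It stayed at 19.8 and 20.4 CPM for NLS and 12.9 and 14.2 CPM for FLAG. Replicates of WRAP53, PML and SP100 were thus far apart, and the baits in which the sum was high were not of 1 body.

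LINC01322 (chr3:165206948-165539437) is one of the 29. It was at 6.24 and 1.20 CPM in the WRAP53 pulldowns, 2.00 and 3.69 CPM in the GFP pulldowns and 0.344 and 0.265 CPM in the NLS pulldowns. LINC02755 (chr11:29335878-29594350) was at 6.75 and 1.32 CPM, 1.44 and 1.52 CPM, and 0.229 and 0.298 CPM in the same libraries. For both, the first WRAP53 pulldown was the higher by several-fold. A wider set is the 1439 LINC-named genes with a count in any library and a mean input under 0.1 CPM, members or not. Genes with counts in pulldowns alone are included. The summed level was 532 and 132 CPM in the WRAP53 pulldowns, 278 and 131 CPM for SP100, 46.8 and 171 CPM for PML, and 41.9 and 46.2 CPM for NLS.

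**Figure D4:**
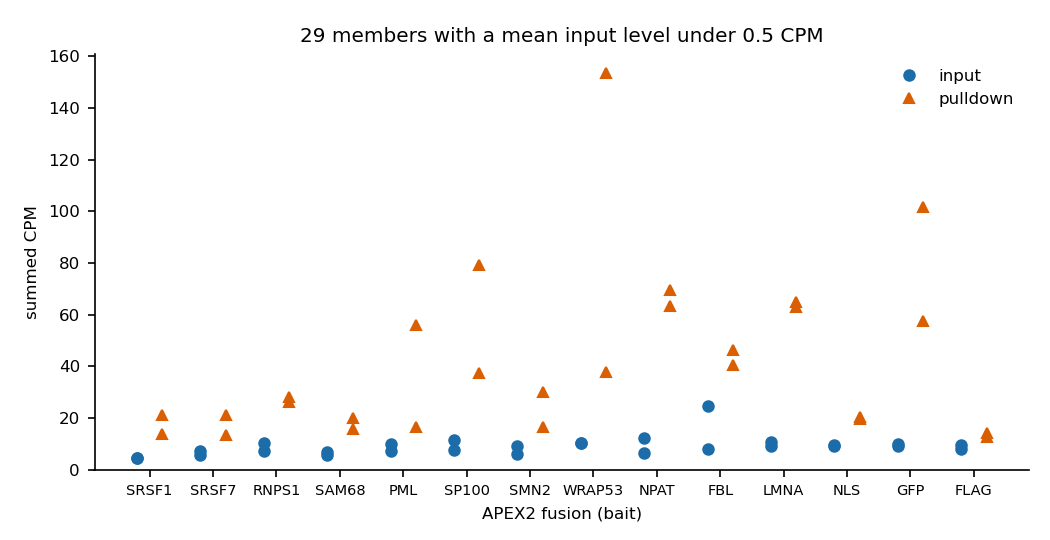
Summed level (CPM) of the 29 members with a mean input under 0.5 CPM in every library, inputs as circles and pulldowns as triangles. Both pulldowns of WRAP53 (153 and 37.8 CPM), RNPS1 (28.1 and 26.2 CPM), GFP, NPAT, FBL, LMNA and SP100 stand above all inputs (highest 24.8 CPM), and the 2 WRAP53 replicates lie far apart.

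Poly(A) selection and ribosome depletion of SRSF7 pulldown RNA were compared in the second table. 142 members passed edgeR's quasi-likelihood test (48.8%), 21 higher and 121 lower after poly(A) selection, where 54.1% of all 18641 tested genes passed, 27.5% higher and 26.7% lower. The median was -0.41 over members and 0.03 over all genes. The members were chosen by their level in ribosome-depleted pulldowns, so lower values after poly(A) selection may lean by construction. Within the 219 members that reach 1 CPM in the inputs, 20 were higher and 89 lower. Their median was -0.31, against -0.84 for the other 72. By span, 45 of 66 members of 100 kb or more were lower and 1 was higher, with a median of -1.13. From 10 to under 100 kb, 62 of 142 were lower and 5 higher (median -0.41), and under 10 kb, 12 of 79 were lower and 15 higher (median 0.08). All genes matched by symbol gave -0.65, 0.09 and 0.61 in the same classes, the same order by span. Of these genes 74.7%, 50.9% and 63.6% passed in either direction. Of the 3153 genes of 100 kb or more, 2234 were lower and 120 higher. The order is thus not particular to LINC-named genes. The member medians by span include those 72, so the size of the gap to all genes is not read.

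LINC02163 was at 99.2 and 83.1 CPM in the poly(A) libraries and 386 and 504 CPM in the ribosome-depleted ones, and fell by 2.43 (SE 0.12, adjusted p = 2.786e-13 by edgeR's test). LINC01725 was at 15.0 and 12.5 CPM against 56.7 and 59.1 CPM and fell by 2.21 (SE 0.11). LINC01783, LINC02208 and LINC01191 fell by 2.36, 2.22 and 2.13. In the other direction, LINC01003 was at 5.52 and 6.08 CPM against 2.12 and 2.69 CPM (1.13, SE 0.22), LINC00173 at 5.40 and 6.33 CPM against 2.46 and 2.65 CPM (1.06, SE 0.21) and LINC02846 at 5.00 and 4.89 CPM against 2.25 and 2.29 CPM (0.98, SE 0.22). For each of these the groups did not overlap. LINC01106 (1.28, SE 0.43) and LINC01429 (1.15, SE 0.46) were also higher, from levels under 1.40 CPM; both calls held only without the first poly(A) library among the 4 left out in turn (adjusted p otherwise up to 0.2093).

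The 14 lines differed in how much of a member they held before any pulldown. In bulk RNA, fewer cells with a transcript and less of it per cell cannot be told apart. By the F test over the lines' inputs in edgeR's quasi-likelihood fit, 194 members passed (66.7%), where 55.0% of all genes passed. The range between the highest and the lowest line's mean was 2 log2 units or more for 58 of the 194 and 4 or more for 7. The median range over all members was 1.52 log2 units, and over all tested genes 1.08. Among the 194, the highest line was FBL for 28, WRAP53 for 26, SP100 for 20 and NPAT for 19. The highest line was not counted over all tested genes, so nothing particular to LINC-named genes is read from these counts. The first inputs of FBL and NPAT also stood apart from their replicates, as described above. Between pairs of lines the members past the threshold numbered from 3 (LMNA and GFP) to 154 (SRSF1 and WRAP53) with a median of 27, and the share of all genes from 0.469% to 37.4% with a median of 6.68%. SAM68 and NLS, the next closest pair, differed in 7 members and 0.541% of all genes. Among the 8 lines whose inputs are of the first library set alone, 93 members passed, where 34.2% of all genes did. Among the 6 lines with inputs of the second set, 175 passed, where 39.1% of all genes did.

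The widest range was that of LINC01198 (chr13:46455203-46466776), which was at 11.8 and 14.3 CPM in the NPAT inputs, 13.2 and 10.9 CPM in the SMN2 inputs and 0.0256 and 0.0544 CPM in the PML inputs (adjusted p = 4.241e-19 by edgeR's F test). LINC00632 (chrX:140709759-140791357), the locus from which the circular RNA CDR1-AS is made, was at 46.7 and 52.0 CPM in the SAM68 inputs, 38.0 and 36.3 CPM in the GFP inputs and 0.964 and 1.59 CPM in the NPAT inputs. Replicates of a line lay close together for both, and the other lines fell between. LINC02163 was at 56.1 and 55.1 CPM in WRAP53 and 1.51 and 1.39 CPM in PML. LINC00958 (chr11:12979534-12989548) was at 36.7 and 41.2 CPM in SP100 and 1.82 and 2.91 CPM in NPAT.

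LINC01687 (chr21:22009158-22098459) was at 8.46 and 10.0 CPM in PML and 0.161 and 0.101 CPM in NPAT. LINC01695 (chr21:28116094-28228667) was at 3.84 and 4.60 CPM in RNPS1 and 0.0223 and 0.0486 CPM in SRSF1. LINC00431 stood out in SP100 (5.56 and 5.60 CPM, all other inputs at most 2.56 CPM). LINC02253, LINC01456 and LINC02506 complete the 10 widest. In all 10, at least 2 of the 3 lines with the lowest input were also among the 3 with the lowest pulldown, and for 6 the same held for the highest. LINC01198, LINC02163, LINC01456 and LINC02506 shared 1 of the 3 highest.

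**Figure D5:**
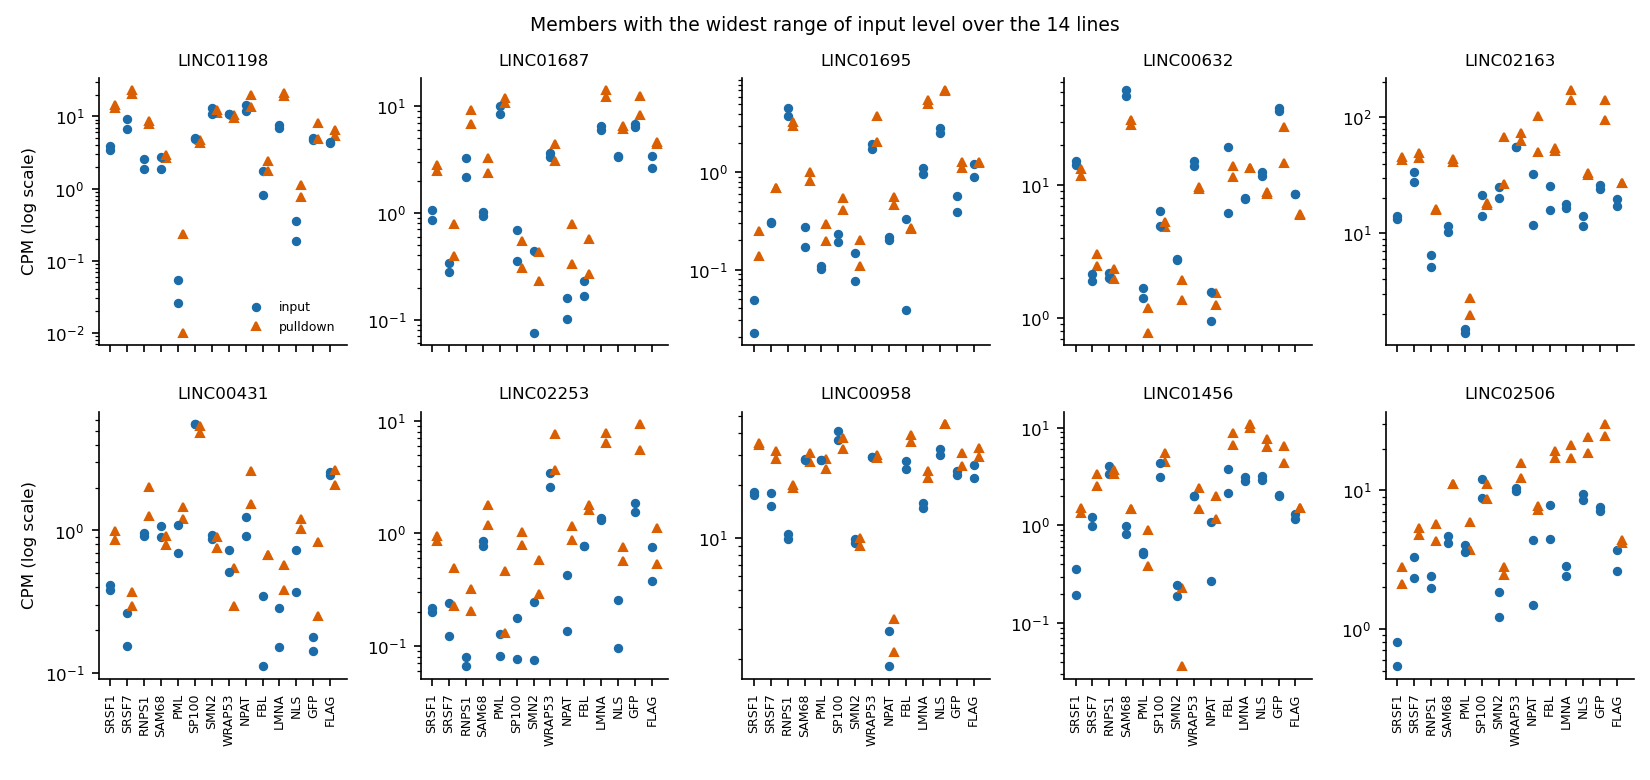
Level (CPM, log scale) of the 10 members with the widest input range in the inputs (circles) and pulldowns (triangles) of the 14 lines, 2 libraries each; a value of 0 is drawn at 0.01. The lines with the lowest input are largely those with the lowest pulldown (at least 2 of 3 shared in all 10 members), while for the highest lines this held for 6 of 10, LINC01198 not among them.

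RefSeq promoters, 250 bases before to 50 after the start, were on file for 202 members. Their content of CG pairs was scored as the observed over the expected number. 78 of 202 members (38.6%) scored 0.6 or more, against 49.0% of all 27305 promoters. The median input range was 1.22 log2 units for those 78 and 1.68 for the other 124, and over all tested genes 0.82 and 1.30. The median input level differed too, at 4.06 and 1.74 CPM, and its part in the difference was not tested. Across the 202 members, score and range had a Spearman correlation of -0.31, a description over genes that share the same 28 input libraries. Of 35 members with a promoter and a called range of 2 or more, 29 scored under 0.6. The share called at any range was much the same in both classes, at 53 of the 78 and 85 of the 124.

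The promoters of 3 line-variable members follow, to show how few CG pairs (in capitals) they hold: LINC00632 with 2 (chrX:140709509-140709808, plus strand), LINC01687 with 0 (chr21:22098410-22098709, minus strand) and LINC01695 with 2 (chr21:28228618-28228917, minus strand). All are from RefSeq, GRCh38.p14, written 5′ to 3′.
LINC00632: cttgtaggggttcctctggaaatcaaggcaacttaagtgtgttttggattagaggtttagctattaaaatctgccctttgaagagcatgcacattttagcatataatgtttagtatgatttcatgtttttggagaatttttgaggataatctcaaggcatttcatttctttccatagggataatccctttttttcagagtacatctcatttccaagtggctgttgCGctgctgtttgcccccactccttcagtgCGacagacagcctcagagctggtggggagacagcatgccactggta
LINC01687: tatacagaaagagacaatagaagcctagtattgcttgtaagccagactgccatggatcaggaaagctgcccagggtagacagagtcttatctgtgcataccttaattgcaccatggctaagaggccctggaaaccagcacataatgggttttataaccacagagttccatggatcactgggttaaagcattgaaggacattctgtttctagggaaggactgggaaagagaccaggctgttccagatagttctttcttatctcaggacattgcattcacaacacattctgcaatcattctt
LINC01695: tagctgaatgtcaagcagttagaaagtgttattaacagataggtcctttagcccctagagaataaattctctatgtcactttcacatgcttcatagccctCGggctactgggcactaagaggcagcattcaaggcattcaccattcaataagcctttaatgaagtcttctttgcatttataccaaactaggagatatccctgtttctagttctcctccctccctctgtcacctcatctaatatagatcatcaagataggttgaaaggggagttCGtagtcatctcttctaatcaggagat

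For contrast, 3 abundant members that were present in every line are shown the same way: LINC00662 with 20 CG pairs (chr19:27793891-27794190, minus strand, input range 0.99 log2 units), LINC01572 with 24 (chr16:72664921-72665220, minus strand, 1.81) and LINC00665 with 12 (chr19:36331669-36331968, minus strand, 1.02). The scores were 0.85, 0.95 and 0.52, against 0.15, 0 and 0.16 for the first group. The contrast is not clean: LINC00665 scored under 0.6, and the input range of LINC01572 was above the member median of 1.52. These 6 were chosen after their values were seen, and the count of CG pairs is a description of the letters, not of methylation.
LINC00662: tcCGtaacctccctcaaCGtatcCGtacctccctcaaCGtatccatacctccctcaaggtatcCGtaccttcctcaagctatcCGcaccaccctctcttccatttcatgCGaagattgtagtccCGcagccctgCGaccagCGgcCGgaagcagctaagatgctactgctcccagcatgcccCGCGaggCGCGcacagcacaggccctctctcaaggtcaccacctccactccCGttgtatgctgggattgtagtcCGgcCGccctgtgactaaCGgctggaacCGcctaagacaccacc
LINC01572: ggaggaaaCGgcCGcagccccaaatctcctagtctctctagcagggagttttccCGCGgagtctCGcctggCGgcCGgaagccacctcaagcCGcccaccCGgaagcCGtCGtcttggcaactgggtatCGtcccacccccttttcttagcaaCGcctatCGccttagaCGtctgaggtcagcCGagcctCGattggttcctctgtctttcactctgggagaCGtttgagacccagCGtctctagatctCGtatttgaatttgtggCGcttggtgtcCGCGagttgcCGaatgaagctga
LINC00665: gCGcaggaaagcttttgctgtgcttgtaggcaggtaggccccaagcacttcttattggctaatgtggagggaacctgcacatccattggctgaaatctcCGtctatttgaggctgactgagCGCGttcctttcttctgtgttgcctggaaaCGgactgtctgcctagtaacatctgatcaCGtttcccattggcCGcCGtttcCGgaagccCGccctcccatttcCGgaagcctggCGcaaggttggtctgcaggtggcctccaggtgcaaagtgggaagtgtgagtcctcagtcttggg

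Noncoding RNAs with well-known names give a scale for these differences. Of 22 listed, 18 were tested. For the speckle baits against NLS 7 were higher, among them MALAT1 (2.03, adjusted p = 8.046e-07 by edgeR's test), MIR503HG (2.01) and TUG1 (0.93), and the largest called member difference, 1.47 for LINC02298, was below the first of these. For LMNA against NLS 5 were higher, with SOX2-OT (1.65) and MIR31HG (1.33) in the range of the abundant LINC members.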

How the data were processed

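The deposited values are raw read counts per gene for 56 libraries in one table and 4 in another. Per the submitters' processing notes, STAR 2.7.4a, featureCounts and hg38 were used; no counter version, annotation or strand setting is given in the sources used here. 1 of 60591 gene rows, which holds a cell that is no number, was left out. The members and gene lists were chosen with earlier results of these data known.

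In edgeR 4.0.16 (R 4.3.3), genes were filtered with filterByExpr by group, scaled by TMM and fitted by quasi-likelihood with 1 mean per group, over the 28 groups of the first table and the 2 of the second, with Benjamini-Hochberg adjustment over all tested genes at 0.05. Residual degrees of freedom were 28 in the first table and 2 in the second. Log2 CPM adds a prior count of 2. Separate cultures are not stated for replicates, so the spread behind each p-value is that between libraries and may be technical. Replicate numbers did not pair the fractions: the correlation of replicate differences lay between -0.081 and 0.081 over the 14 baits. Code was tested on simulated counts.

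Named members are the 10 with the highest mean pulldown CPM, 3 on either side of the CPM limit, the 5 highest and 5 lowest differences past the threshold for the speckle baits and for poly(A), the 2 highest and 2 lowest for each other bait against NLS (with the same direction in both replicates), and the 10 widest input ranges. LINC00839, LINC01695 in LMNA against GFP, the 6 members below 0 with every bait, LINC00665 beyond its level and the printed promoters were chosen after their values were seen. Alternatives were DESeq2 1.42.0, its size factors, no filter, a replicate block, single library sets, members chosen by input level, and leaving out each library.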

Additional observations from a re-analysis of the deposited data

Results flagged for a closer look

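Pulldown over input differed among the 14 baits for 208 of 291 members, by edgeR's quasi-likelihood F test with Benjamini-Hochberg adjustment, where 68.8% of all tested genes passed. The test is of the difference between baits itself.

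Input level differed among the 14 lines for 194 of 291 members by the same kind of test, where 55.0% of all tested genes passed.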

How the results depend on the processing

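Direction held in every alternative run for each named result that has one, and the input-range results have none. Of the 53 named results with a test, 26 lost significance in at least 1 of the 60 fits without 1 library. Without the low-count filter the member counts against NLS were 15 for WRAP53, 0 for FBL, 37 for LMNA, 20 for GFP and 4 for FLAG. In the same order, 2.41%, 0.102%, 5.96%, 6.27% and 0.746% of all genes passed there. With DESeq2 the member counts were 32 for the PML body baits (5 higher, 27 lower), 37 for WRAP53 (15 higher, 22 lower), 13 for NPAT (4 higher, 9 lower) and 6 for FBL. In the same order, 9.2%, 11.4%, 7.74% and 3.31% of all genes passed with DESeq2. Within the library set of SRSF1, SRSF7, PML, NLS and FLAG, 133 members differed among 5 baits, 1 passed for the PML body baits, and the member median was above that of all genes for 5 of 5 baits. Among the 8 lines with inputs of the first set, 93 differed in input level. Without the SRSF1 line, 21 passed for the speckle baits, a setting chosen after seeing the data. Leaving out 1 library gave 193 to 224 members that differed among baits, 166 to 219 among inputs, 12 to 14 baits with a member median above that of all genes, and 104 to 150 members for poly(A). Against NLS it gave 18 to 35 for the speckle baits, 22 to 28 for SAM68, 2 to 22 for the PML body baits, 6 to 15 for SMN2, 9 to 26 for WRAP53, 2 to 40 for NPAT, 0 to 51 for FBL, 25 to 65 for LMNA, 11 to 63 for GFP and 0 to 7 for FLAG. With the replicate number as a block, 225 members differed among baits and 195 among inputs, and the counts were 40 for the speckle baits, 64 for LMNA, 50 for GFP and 149 for poly(A), with the others within 1.5 times of the counts without it. At 2 libraries a group, members under 0.5 CPM in the inputs rest on few reads, and their folds have wide errors. The causes of these changes were not tested.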
